A study of Mus musculus with 8 samples.

Results

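Genes of peptide presentation by the major histocompatibility complex (MHC) class I were followed through the cells of lung tumors of the KP mouse. The 9 members were taken by symbol among the 27923 genes listed in each of 8 tables of unique molecular identifiers (UMIs): the heavy chains H2-K1 and H2-D1, the light chain B2m, the transporter subunits Tap1 and Tap2, the chaperone Tapbp, the immunoproteasome subunits Psmb8 and Psmb9 and the transactivator Nlrc5. All 9 were found in every table. Tumors came from 2 mice, 1 male and 1 female. Each tumor gave 1 library of photoactivated, sorted cells of the Healthy/Tumor Border and 3 Seq-Well arrays of cells without photoactivation (Whole Tumor). The arrays of a tumor are technical replicates, so the p-values measure the spread between arrays of 1 mouse. Both groups of both tumors share the KP genotype, with p53 fl/fl, given by KP embryonic stem cells of C57BL/6 background in chimeric albino C57BL/6 hosts, whose own cells lack these alleles, and host-derived cells were not told apart. Cre came from an adenovirus with the SPC promoter, which is active in alveolar type II cells, when the mice were 12 weeks old, and tumors were taken 16 weeks later with no further treatment.

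Every nucleated cell can show peptides of its own proteins to CD8 T cells on MHC class I. Peptides cut by the proteasome, in which Psmb8 and Psmb9 replace constitutive subunits after interferon exposure, are pumped into the endoplasmic reticulum by the Tap1-Tap2 transporter, and tapasin (Tapbp) holds the empty complex of a heavy chain and B2m beside it. Nlrc5 drives transcription of these genes, and tumor cells with little class I are known to be poor targets of CD8 T cells.

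In GRCm38, 7 of the members lie on chromosome 17, inside or beside the mouse MHC: Tapbp at chr17:33915899-33929292, H2-K1 at chr17:33996017-34000347, Psmb9 at chr17:34181987-34187764, Tap1 at chr17:34187553-34197225, Psmb8 at chr17:34197721-34201454, Tap2 at chr17:34203527-34216321 and H2-D1 at chr17:35262730-35267499. B2m lies at chr2:122147686-122153083 and Nlrc5 at chr8:94434356-94527272. On the other strand Psmb9 overlaps Tap1, Psmb8 and Tap2 overlap Gm20496, Tap2 also Gm15821, Tapbp Gm19412, Nlrc5 9330175E14Rik and B2m Patl2, while Tapbp overlaps Zbtb22 and Nlrc5 Mir7072 on their own strand, and reads of such pairs could not be told apart here, since strand use in counting is not given in the sources used here. Of the 451 windows of 50 bases in the last 500 bases of the transcript, H2-K1 shared 2 with H2-D1, and H2-D1 shared 43 with other genes, so reads at those ends may be split or lost.

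The starts of 7 members were among the RefSeq promoter windows of GRCm38.p6, which run from 250 bases before to 50 after a start as RefSeq gives it. For Tapbp, Psmb8, Psmb9 and H2-D1 that start lies inside the GENCODE gene span given above, not at its first base. They were searched on both strands for the interferon-stimulated response element core GAAANNGAA, the gamma-activated site TTCNNNGAA and the kappaB site GGGATTCCC. The sequences of the light chain, both heavy chains and Psmb8 are shown because they hold a match, in capitals, and that of Tap1 because its window covers 275 bases of that of Psmb9 and holds none. They lie at chr2:122147437-122147736 (B2m, plus strand), chr17:34000298-34000597 (H2-K1, minus strand), chr17:35262844-35263143 (H2-D1, plus strand), chr17:34197945-34198244 (Psmb8, plus strand) and chr17:34187306-34187605 (Tap1, plus strand).
B2m: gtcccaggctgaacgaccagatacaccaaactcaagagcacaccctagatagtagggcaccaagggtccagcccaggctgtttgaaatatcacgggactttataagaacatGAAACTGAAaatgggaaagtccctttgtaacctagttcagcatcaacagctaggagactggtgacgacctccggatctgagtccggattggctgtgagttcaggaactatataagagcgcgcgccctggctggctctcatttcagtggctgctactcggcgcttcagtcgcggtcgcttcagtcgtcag
H2-K1: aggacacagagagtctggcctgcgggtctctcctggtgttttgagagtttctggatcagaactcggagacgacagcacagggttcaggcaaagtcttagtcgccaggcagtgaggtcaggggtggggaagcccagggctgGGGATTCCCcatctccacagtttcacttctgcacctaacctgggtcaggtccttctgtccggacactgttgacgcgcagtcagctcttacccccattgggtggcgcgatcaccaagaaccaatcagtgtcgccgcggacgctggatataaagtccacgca
H2-D1: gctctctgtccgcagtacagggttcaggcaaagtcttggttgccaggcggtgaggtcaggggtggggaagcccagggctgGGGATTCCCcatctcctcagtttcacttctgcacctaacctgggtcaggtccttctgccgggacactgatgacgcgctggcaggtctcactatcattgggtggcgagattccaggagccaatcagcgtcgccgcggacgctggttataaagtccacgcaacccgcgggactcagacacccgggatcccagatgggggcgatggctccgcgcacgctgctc
Psmb8: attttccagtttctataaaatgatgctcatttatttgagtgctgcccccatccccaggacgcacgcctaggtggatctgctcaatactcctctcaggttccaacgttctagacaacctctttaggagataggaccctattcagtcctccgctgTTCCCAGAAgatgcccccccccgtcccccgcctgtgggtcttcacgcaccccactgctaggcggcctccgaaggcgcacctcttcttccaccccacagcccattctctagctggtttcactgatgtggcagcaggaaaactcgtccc
Tap1: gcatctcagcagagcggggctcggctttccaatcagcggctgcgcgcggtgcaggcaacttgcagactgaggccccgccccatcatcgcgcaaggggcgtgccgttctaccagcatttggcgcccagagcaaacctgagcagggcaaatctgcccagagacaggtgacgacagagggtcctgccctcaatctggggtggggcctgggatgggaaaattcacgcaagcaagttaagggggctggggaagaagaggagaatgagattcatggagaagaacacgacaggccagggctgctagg
B2m held 1 response element core, which 8.56% of all 32851 promoter windows hold. H2-K1 and H2-D1 each held 1 kappaB site, present in 0.353% of windows, and Psmb8 held 1 gamma-activated site, present in 8.3%. No match was found for Tapbp, Tap1 or Psmb9 in these windows.

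Tumor numbers follow the sample labels throughout, although the cell names inside each table carry the number of the other tumor. The numbers of barcodes by tumor and region, taken by label, equal the cell numbers that the study states for them. The 8 libraries held 405627 to 2029200 UMIs, the fewest in Tumor 2 array 2, and 3894 of 4343 barcodes passed 200 genes. In all, 10 barcode sequences occurred in more than 1 library (56 cells, of which 24 were fibroblast-like and 32 quiescent, and none epithelial), and 57 cells called as doublets were kept. Cells were clustered without the members and named by marker genes. The keratin-positive class, called Krt+ tumor-like, had 160 cells led by Krt7, Krt18 and Krt19, of which 157 came from Tumor 1 (10 from the border library, then 52, 61 and 34 from arrays 1 to 3). The surfactant-positive class, called Sftp+ tumor-like, had 70 cells led by Sftpc, Sftpa1 and Sftpb, 43 in Tumor 1 and 27 in Tumor 2, and either class may hold healthy epithelium. They were set against Csf3r+ G0s2+ myeloid-like cells (1682), C1q+ macrophage-like cells (424, with 3 alveolar macrophage markers among the 10 leading genes against 5 of their own), T or NK-like cells (213, led by Il1rl1, Gzma, Icos and Calca, from which 44 cells led by Il1rl1, Calca and Il5 split off at resolution 1.0) and stromal-like cells, which are the endothelial-like (45) and fibroblast-like (71) cells together. The names of the epithelial classes were given by their markers: 8 of 14 Krt+ markers and 9 of 12 Sftp+ markers were among the 10 leading genes. These counts made the names and do not test them. When cells were assigned by their UMIs of these markers instead, 109 of the 160 Krt+ cells stayed, 28 passed the surfactant gate and 23 had no name.

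Krt+ tumor-like cells of Tumor 1 held few UMIs of any member. Levels are given as CPM, UMIs per 1000000 UMIs of a class in a library, which compares a gene between classes but not genes with each other. The B2m level of Krt+ cells was 96.2 in the border library, 137 in array 1, 168 in array 2 and 134 in array 3. In T or NK-like cells of the same arrays B2m stood at 5149, 3415 and 4295, in myeloid-like cells at 649, 722 and 812, and in Sftp+ cells at 405, 796 and 1430. The Krt+ values lay below those of all 3 other classes in every array. Summed over Tumor 1, B2m was 145 in Krt+ cells (84 UMIs, exact Poisson 95% interval 116 to 180, counting error only), so T or NK-like cells held 27.1-fold more (95% interval 21.5 to 34.5), Sftp+ cells 5.81-fold and myeloid-like cells 5.48-fold. Of the 45 T or NK-like cells of Tumor 1, 30 lay in the cluster led by Il1rl1, Calca and Il5 at resolution 1.0. In the arrays B2m stood at 3884 in these and at 4191 in the other cells of the class.

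The heavy chains H2-K1 and H2-D1, which carry the peptide groove, were low in Krt+ cells as well. H2-K1 stood at 264 at the border and 104, 146 and 103 in the arrays of Krt+ cells (mean of arrays 117 ± 24.4, SD, n = 3). Sftp+ cells of the arrays held 1071, 1140 and 1453 (1221 ± 204, SD, n = 3) and myeloid-like cells 437, 404 and 534. H2-D1 stood at 192 at the border and 202, 282 and 181 in the arrays of Krt+ cells (222 ± 53.2, SD, n = 3), against 1071, 947 and 1153 in Sftp+ cells and 842, 854 and 934 in myeloid-like cells. In the arrays neither heavy chain overlapped between Krt+ cells and these classes. The border library held 1 Sftp+ cell, with no UMI of H2-D1. Summed over Tumor 1, H2-K1 was 8.73-fold (95% interval 6.69 to 11.5) and H2-D1 4.17-fold (3.31 to 5.27) more abundant in Sftp+ than in Krt+ cells.

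**Figure D1:**
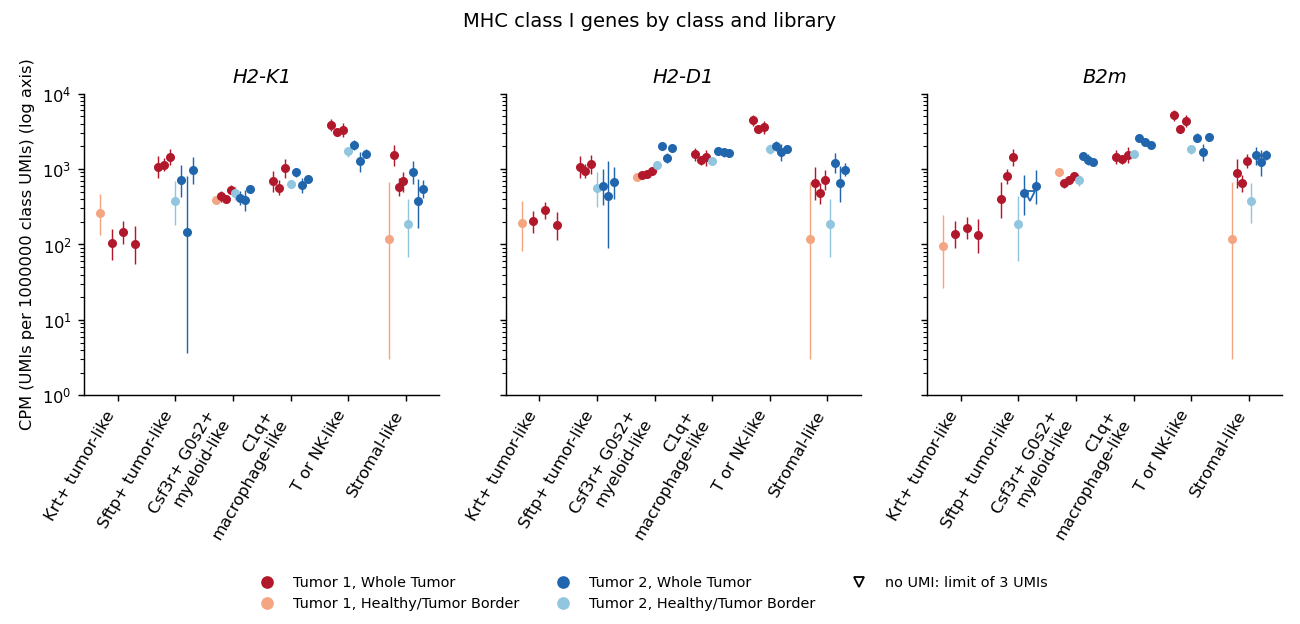
Level of H2-K1, H2-D1 and B2m in CPM, UMIs per 1000000 UMIs of a class (log axis) in each library of each class with at least 5 cells. Bars are exact 95% Poisson intervals and an open triangle marks the limit of 3 UMIs where a library held none. The Krt+ points of Tumor 1 sit between 96.2 and 282 for the 3 genes, and the T or NK-like points of Tumor 1 between 3080 and 5149.

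Genes of peptide supply were close to the limit of detection in Krt+ cells. Tapbp, which bridges the transporter and the empty class I molecule, gave 2, 2, 8 and 3 UMIs in the border and arrays 1 to 3, or 25.9 CPM over Tumor 1, against 236 in myeloid-like and 136 in Sftp+ cells. Tap1 gave 2 UMIs, both in array 1, and Tap2 gave 2, in arrays 1 and 3. Psmb8 gave 2, at the border and in array 2, Nlrc5 gave 1, in array 2, and Psmb9 gave none, which allows up to 5.19 CPM. The ratios therefore have wide counting intervals: T or NK-like cells held 52.0-fold more Tap1 (95% interval 13.0 to 452) and 72.0-fold more Psmb8 (18.5 to 618). For Nlrc5 the ratio was 48.0 (7.11 to 2053) and for Tap2 it was 16.01. For Psmb9 a bound was taken with 3 UMIs as the limit of Krt+ cells over Tumor 1. It gave a ratio of 24.01 and leaves out the counting error of the T or NK-like cells. In Sftp+ cells Tap2 was 11.01-fold (2.10 to 109) higher than in Krt+ cells, and the bound of Psmb9, taken the same way, was 5.24-fold.

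The difference was tested on UMIs summed per library and class by edgeR's quasi-likelihood test with library as a block and Benjamini-Hochberg adjustment over all 4027 genes tested, where 7 members passed the filter on low counts and Tap2 and Nlrc5 did not. Changes are log2 values of Krt+ over the other class. Of the 7, H2-D1 alone reached the minimum of the filter (152 CPM in 2 sums) in Krt+ cells. The other 6 needed sums of classes where they are higher, so counts and medians over the 7 are descriptions only. All 7 tested members were lower in Krt+ than in myeloid-like cells, where 30.8% of all genes tested were called lower, than in C1q+ cells (17.0%) and than in T or NK-like cells (12.9%). The median over the 7 was -3.05, -2.99 and -4.35, beside -0.26, -0.03 and 0.26 over all genes tested. With Psmb9 at its bound, because its fitted change depends on a prior count, these medians were -2.36, -2.95 and -4.35. B2m was lower by 2.36 (SE 0.49, adjusted p = 2.645e-05) than in myeloid-like cells and by 4.35 (SE 0.54, adjusted p = 2.019e-10) than in T or NK-like cells. Tapbp fell by 3.05 (SE 0.49, adjusted p = 1.203e-07) against myeloid-like and by 2.11 (SE 0.63, adjusted p = 0.005892) against T or NK-like cells. Because the filter let in genes through the other classes, the fit was also made with no filter: all 7 stayed called against myeloid-like and C1q+ cells and 6 against T or NK-like cells, where Tapbp was not (-2.06, adjusted p = 0.05215). With the members that the filter had removed, 8, 8 and 7 of the 9 were then called.

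Among the 7 changes against myeloid-like cells, that of H2-K1 was nearest to the threshold of 0.05. It was lower by 1.5004 (SE 0.47, adjusted p = 0.004268), but without array 1 it was lower by 1.27 (adjusted p = 0.07204), without array 3 by 1.36 (adjusted p = 0.07575), with RLE scaling by 0.80 (adjusted p = 0.09504) and with DESeq2 by 0.81 (adjusted p = 0.05197). The same gene fell by 4.00 (SE 0.53, adjusted p = 1.443e-09) against T or NK-like cells. H2-D1 was lower by 1.86 (SE 0.45, adjusted p = 0.0002399) against myeloid-like and by 3.50 (SE 0.49, adjusted p = 1.165e-08) against T or NK-like cells. Tap1 and Psmb8 were lower by 3.44 and 3.22 against myeloid-like cells, with adjusted p = 0.000294 and 0.0004146. The size of the Tap1 change was unsteady. It was -5.96 (adjusted p = 0.0008336) without array 1, which held both Tap1 UMIs, and -1.78 (adjusted p = 0.01455) with at least 500 genes per cell. When cells were required to hold 500 genes, only a single epithelial cluster of Krt+ and Sftp+ cells together was left, with H2-K1 at 389 and B2m at 333 CPM. There H2-K1 stood at -0.01 against myeloid-like cells (adjusted p = 0.9834), and 4 of 7 members were called against myeloid-like and against C1q+ cells.

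**Figure D2:**
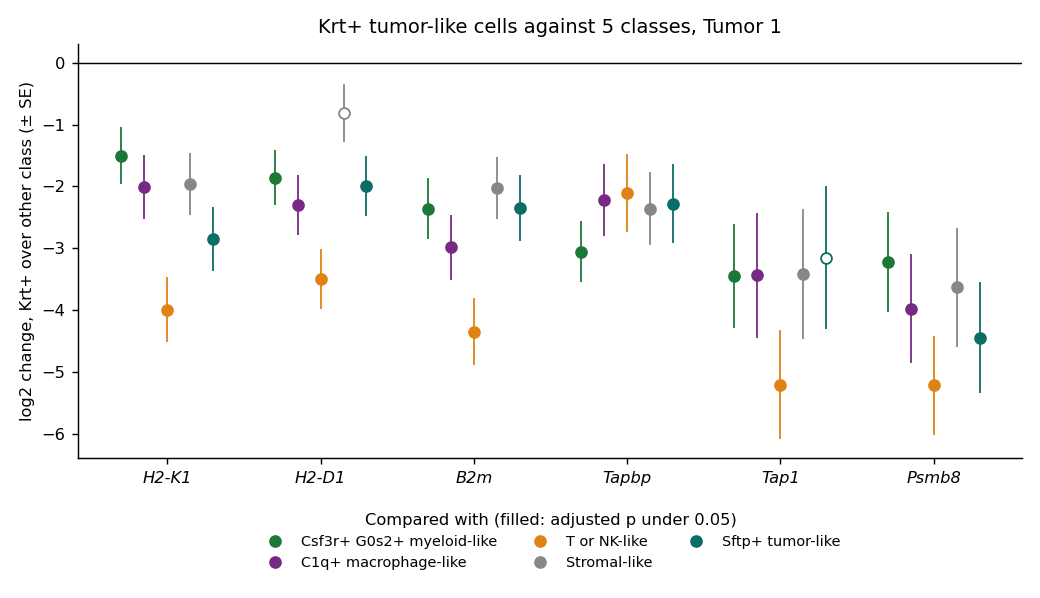
Log2 change of H2-K1, H2-D1, B2m, Tapbp, Tap1 and Psmb8 in Krt+ cells over 5 other classes of Tumor 1, with the standard error of edgeR's fit as bars. Filled points passed an adjusted p of 0.05. Every point lies below 0, and the open points are H2-D1 against stromal-like cells and Tap1 against Sftp+ cells.

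The 2 epithelial classes of Tumor 1 differed from each other. Of the 7 tested members, 6 were lower in Krt+ than in Sftp+ cells, where 6.61% of genes tested were called lower, and the median was -2.85 (-2.39 with Psmb9 at its bound) beside 0.02 over all genes tested. H2-K1 was lower by 2.85 (SE 0.52, adjusted p = 2.117e-05), H2-D1 by 1.998 (SE 0.49, adjusted p = 0.002005), B2m by 2.35 (SE 0.53, adjusted p = 0.0007312) and Psmb8 by 4.45 (SE 0.90, adjusted p = 0.0001363). Tapbp was lower by 2.28 (adjusted p = 0.008183), and Tap1, at -3.15 with adjusted p = 0.05711, was not called. With no filter on low counts, Tapbp (-2.17, adjusted p = 0.07644) and Psmb9 (-4.88, adjusted p = 0.07183) lost their calls, and B2m and Psmb8 kept theirs (-2.23 and -4.31, adjusted p = 0.001986 and 0.001247), so that 4 members were called. The count is a description only here too. The arrays carried this unevenly: 3 members stayed called without array 1 and 2 without array 3, where H2-D1 stood at -1.77 (adjusted p = 0.1243) and B2m at -1.79 (adjusted p = 0.1371). With cells assigned by marker UMIs, 2 members were called, H2-K1 by -2.41 (adjusted p = 0.00223) and H2-D1 by -2.02 (adjusted p = 0.008253). Immune genes that epithelium should lack were alike in the 2 classes: a list of 12 gave 3.25 per 10000 UMIs in Krt+ cells (1.20 to 4.34 over libraries, 9 of 12 with a UMI, and C1qa, Cd3e and Cd79a at 0) and 3.86 in Sftp+ cells (2.58 to 10.1), against 154 in myeloid-like cells. The median share of mitochondrial UMIs was 5.40% in Krt+ and 17.9% in Sftp+ cells, and its part in the difference was not tested.

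Against stromal-like cells 6 of 7 members were lower in Krt+ cells (15.4% of genes tested), with a median of -2.36 beside -0.29 over all genes tested, and H2-D1 at -0.82 (SE 0.47, adjusted p = 0.1875, 95% interval -1.74 to 0.11) was not called. Levels within the stromal-like class were uneven. In Tumor 1 the 10 endothelial-like cells held B2m at 1665, H2-K1 at 1413 and H2-D1 at 1022 CPM, whereas the 31 fibroblast-like cells held 170, 130 and 170, with intervals that overlapped those of Krt+ cells. The 6 stromal-like cells at the border, all fibroblast-like, gave 1 UMI of each of the 3 genes. Of the 31 fibroblast-like cells, 13 had a barcode found in several libraries, and the remaining 18 held B2m at 167, H2-K1 at 83.3 and H2-D1 at 139. Without shared barcodes 4 of 7 members were called, and Tap1, with 3 stromal-like UMIs left of 9, was not (2.48, adjusted p = 0.5358), since border and array 1 then held fewer than 5 stromal-like cells. Without array 1 the count fell to 2 members (H2-K1 at -1.21, adjusted p = 0.1735) and without array 3 to 3 (B2m at -1.39, adjusted p = 0.1536).

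Single cells were also compared at equal depth. After cells were thinned to 500 UMIs and shallower ones left out, which removed 7 of 157 Krt+ and 330 of 433 quiescent cells of Tumor 1, 81.3% of 150 Krt+ cells of Tumor 1 held no UMI of any of the 9 genes, beside 71.8% of 103 quiescent, 51.6% of 31 fibroblast-like, 26.2% of 42 Sftp+, 36.5% of 1061 myeloid-like, 34.0% of 50 C1q+ and 2.22% of 45 T or NK-like cells. A UMI of H2-K1 or H2-D1 was found in 13.3% of Krt+ cells (exact binomial 95% interval 8.34 to 19.8, for the counting of cells of 1 mouse only), in 66.7% of Sftp+ cells (50.5 to 80.4) and in 93.3% of T or NK-like cells (81.7 to 98.6). Before thinning the shares were 43.3% and 86.1%, and every T or NK-like cell held such a UMI, at median depths of 2660, 3395 and 3001 UMIs. Ptprc, a gene of leukocytes, had a UMI in 0.667% of thinned Krt+ cells, and the keratin Krt18 in 66.7%. How many of the heavy chain UMIs of Krt+ cells come from free RNA was not tested.

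**Figure D3:**
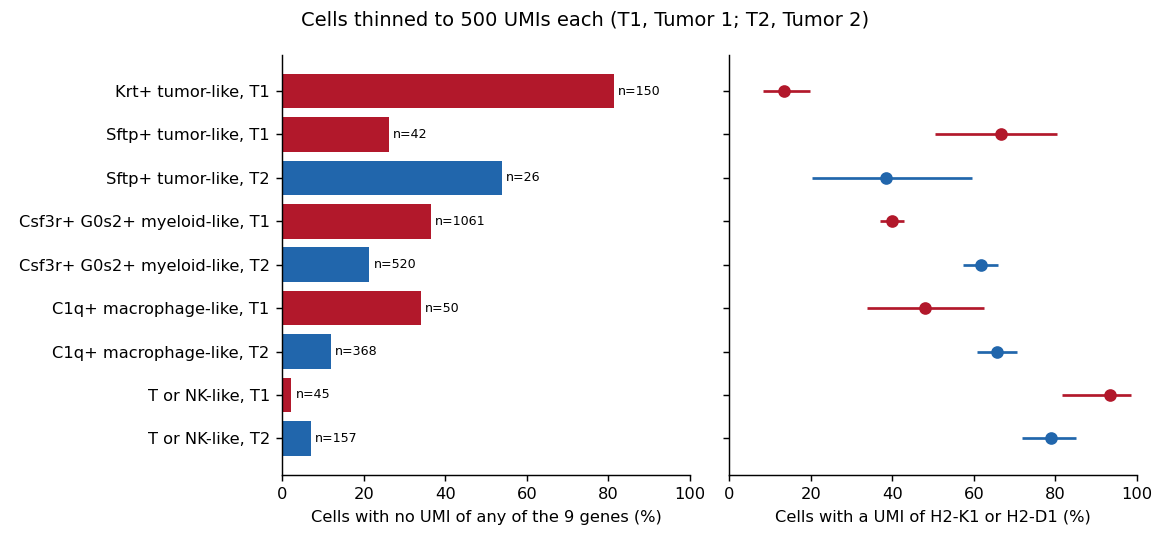
Share of cells (%) of 5 classes by tumor after thinning to 500 UMIs. The left bars give cells with no UMI of the 9 genes, and the right points cells with a UMI of H2-K1 or H2-D1 with exact 95% binomial intervals. Among the classes plotted, Krt+ cells of Tumor 1 have the highest share with no UMI, 81.3%, and T or NK-like cells of Tumor 1 stand at 2.22%.

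In Tumor 2 only 3 Krt+ cells were found, so Sftp+ cells stood for its epithelium. Their B2m level was 187 at the border and 480, 0 and 597 in arrays 1 to 3, where the array without a UMI is the shallow one, with 6 cells. Myeloid-like cells of the same libraries held B2m at 708, 1502, 1329 and 1236, and T or NK-like cells at 1817, 2594, 1685 and 2648. The Sftp+ values lay below both in all 4 libraries. H2-D1 was 561 at the border and 600.0, 434 and 671 in the arrays of Sftp+ cells, against 1124, 2025, 1404 and 1911 in myeloid-like cells. H2-K1 did not order the classes this way, at 374, 720.0, 145 and 970 in Sftp+ cells against 479, 417, 384 and 543 in myeloid-like cells.

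In edgeR's test of Tumor 2, 5 members passed the filter among 2105 genes, and Tap1, Tap2, Psmb9 and Nlrc5 did not. For H2-K1 and H2-D1 the Sftp+ sums would have sufficed to pass, whereas B2m, Tapbp and Psmb8 needed sums of other classes, so counts and medians over the 5 are descriptions only. Against myeloid-like cells 3 of 5 were lower (32.8% of genes tested): B2m by 1.87 (SE 0.43, adjusted p = 0.0002211), H2-D1 by 1.66 (SE 0.37, adjusted p = 0.000154) and Tapbp by 1.52 (SE 0.58, adjusted p = 0.02247). With no filter on low counts all 3 stayed called, at -3.01, -2.81 and -2.65 (adjusted p = 8.355e-11, 4.202e-10 and 0.001046). All 3 lay further below 0 there than with the filter, whereas in CPM myeloid-like cells held 3.117-fold, 2.915-fold and 2.537-fold more. Tapbp was not called without the border library (-1.27, adjusted p = 0.1155) or without array 3 (-1.19, adjusted p = 0.1599). In the fit with the filter H2-K1 changed by 0.17 (SE 0.37, adjusted p = 0.7186), with a 95% interval of -0.54 to 0.89. Its ratio in CPM of myeloid-like to Sftp+ cells was 0.762 (95% counting interval 0.576 to 1.025), and its change with no filter is not given here. Against C1q+ cells the same 3 genes were lower (26.1%), with B2m at -2.54 (adjusted p = 4.582e-06). For C1q+, T or NK-like and stromal-like cells the changes with no filter are not given here. The changes of B2m and Tapbp against these classes are thus descriptions only. Against T or NK-like cells B2m, H2-D1 and H2-K1 were lower (21.3%), by 2.36, 1.45 and 1.26, and against stromal-like cells B2m alone (17.8%), by 1.73 (adjusted p = 0.002759), with 2 members called there without array 1. All genes tested had medians of -0.55, -0.56, -0.43 and -0.66 in these 4 comparisons and the 5 members medians of -1.52, -1.45, -1.26 and -0.48.

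Sftp+ levels in the 2 tumors are given side by side without a test. Summed over each tumor, H2-K1 was 1148 in Tumor 1 and 643 in Tumor 2, H2-D1 952 and 597, B2m 843 and 386, Tapbp 136 and 70.2, and Psmb8 97.9 and 58.5. Of thinned Sftp+ cells of Tumor 2, 53.9% of 26 held no member UMI and 38.5% (20.2 to 59.4) held one of H2-K1 or H2-D1. The immune list stood at 0.702 per 10000 UMIs in Sftp+ cells of Tumor 2 and its epithelial counterpart of 9 genes at 518, against 199 in Sftp+ cells of Tumor 1.

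Among classes with at least 20 cells, T or NK-like cells had the highest level of both heavy chains and B2m in each tumor, but in Tumor 2 the interval overlapped the next class for B2m (2306 against 2219 in endothelial-like cells) and for H2-D1 (1866 against 1739 in myeloid-like cells). In Tumor 1 the order of B2m ran from T or NK-like (3938) over B-like (2446) and C1q+ cells (1402) to Sftp+ (843), myeloid-like (797), quiescent (216), fibroblast-like (170) and Krt+ cells (145). The intervals of Sftp+ and myeloid-like cells overlapped, and the last 3 classes could not be ordered. The quiescent class, 696 cells with a median near 350 UMIs, is shallow and was led by Gm10801, Gm10800 and Gm10717. In Tumor 1 its immune list stood at 41.1 per 10000 UMIs and its epithelial list at 5.31, against 3.25 and 147 in Krt+ cells. In Tumor 2 these lists stood at 37.7 and 3.63 in the quiescent class, so they do not mark it as epithelial. For H2-K1 quiescent, Krt+ and fibroblast-like cells were lowest (132, 131 and 130), and for H2-D1 too (296 in quiescent, 228 in Krt+ and 170 in fibroblast-like cells). Tapbp was 25.9 in Krt+ cells and 89.7 in the next lowest class, fibroblast-like cells (55.6 without shared barcodes), with intervals that overlapped. In Tumor 2 the lowest B2m level was that of Sftp+ cells (386), with an interval that overlapped the quiescent class (510). For H2-K1 fibroblast-like (361) and quiescent cells were lowest there, at nearly the same level, and could not be ordered.

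The mean over the 9 members of log2(CPM + 10) was lowest in Krt+ cells of Tumor 1, at 5.07, among the 19 pairs of class and tumor with at least 20 cells. The next pairs were fibroblast-like (6.19) and quiescent cells (6.31) of Tumor 1 and Sftp+ cells of Tumor 2 (6.73), and the highest were B-like (8.22) and T or NK-like cells (8.70) of Tumor 1. Over the same 19 pairs, which share libraries, the level of H2-D1 and B2m correlated with r = 0.94, that of H2-K1 and B2m with r = 0.90 and that of H2-K1 and H2-D1 with r = 0.89. Tap1 and Psmb9 correlated with r = 0.69 and Nlrc5 and H2-K1 with r = 0.14. Among 5688 other genes, the pattern most like the mean of the members was that of Stat3 (r = 0.82), followed by Rbbp6, Akap13, Gna13 and Tmem123 (r = 0.81, 0.81, 0.81 and 0.80).

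**Figure D4:**
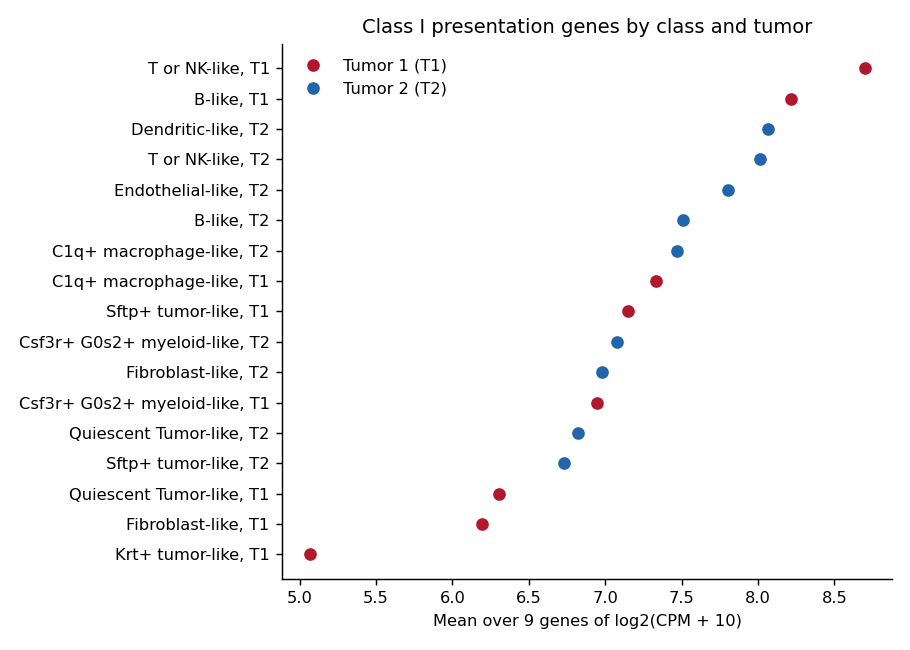
Mean over the 9 genes of log2(CPM + 10) in 17 of the 19 pairs of class and tumor with at least 20 cells. Krt+ cells of Tumor 1 are lowest at 5.07 and T or NK-like cells of Tumor 1 highest at 8.70.

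Next, each class was compared between the tumors over their Whole Tumor arrays, 3 against 3. Mouse and sex cannot be told apart from tumor in this comparison. Myeloid-like cells of Tumor 2 held more H2-D1 (2025, 1404 and 1911 against 842, 854 and 934) and more B2m (1502, 1329 and 1236 against 649, 722 and 812), and neither gene overlapped between tumors. Nlrc5 gave 9, 8 and 19 UMIs in the arrays of Tumor 2 and 0, 2 and 1 in those of Tumor 1, or 24.1-fold more in CPM (95% counting interval 7.62 to 122). H2-K1 overlapped, at 417, 384 and 543 against 437, 404 and 534.

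Of 8 members tested, edgeR called 4 higher in Tumor 2 and 0 lower, where 26.6% of 4682 genes were called higher and 28.0% lower. In either direction 54.6% of genes were called, so the number of members called is no more than that share gives. The median was 0.45 over the members and -0.18 over all genes. H2-D1 was higher by 1.82 (SE 0.19, adjusted p = 2.602e-08), B2m by 1.67 (SE 0.18, adjusted p = 3.289e-08) and Nlrc5 by 5.20 (SE 0.58, adjusted p = 5.001e-08). Nlrc5 needed the sums of Tumor 2, where it is higher, to pass the filter on low counts. With no filter it was higher by 5.05 (adjusted p = 1.364e-11). The fitted 0.80 of H2-K1 (SE 0.20, adjusted p = 0.001823) rests on the scaling: with library sizes alone, which moved the median of all genes to -1.04, it was -0.04 (adjusted p = 0.8416), whereas H2-D1, B2m and Nlrc5 stayed called at 0.98, 0.83 and 4.37. Without Tumor 2 array 3, H2-K1 was 0.57 (adjusted p = 0.05772). Tap1, Tap2, Tapbp and Psmb8 were not called (0.07, -0.66, 0.09 and -0.42), and Psmb9 did not pass the filter. These values depend on the scaling as well. In CPM the ratio of Tumor 2 to Tumor 1 was 0.623 (0.389 to 0.970) for Tap1, 0.355 (0.218 to 0.557) for Tap2, 0.631 (0.521 to 0.761) for Tapbp and 0.429 (0.247 to 0.710) for Psmb8, and with library sizes alone Tap2, Tapbp and Psmb8 were called lower, by 1.53, 0.76 and 1.28 (adjusted p = 0.0007438, 0.001443 and 0.008016), with Tap1 at -0.79 (adjusted p = 0.06316). For Tap1 and Tapbp the sign thus differs between the scalings.

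Different clusters held most of the myeloid-like class in the 2 tumors. Of Whole Tumor cells, a cluster led by Retnlg held 126 in Tumor 1 and 356 in Tumor 2, a cluster with Ccl3 and Tnf 245 and 79, and a cluster with Mmp9 and Cd177, joined to the class by its similarity, 269 and 45. Genes that mark the class moved too: in the Whole Tumor arrays Retnlg stood at 22.2 CPM in Tumor 1 and 1252 in Tumor 2, S100a8 at 1184 and 5056, G0s2 at 684 and 2354, and Il1a at 805 and 160. Over all libraries of the class, the list of 12 immune genes stood at 154 per 10000 UMIs in Tumor 1 and 396 in Tumor 2. The part of these shifts in the difference was not tested beyond fits inside each cluster. Fitted inside each cluster, H2-D1 was higher in Tumor 2 by 1.02 (adjusted p = 0.003498), 0.96 (adjusted p = 0.007557) and 1.15 (adjusted p = 0.04884) in the Retnlg, Ccl3 and Mmp9 clusters. B2m was higher by 1.07 (adjusted p = 0.0007782) and 1.35 (adjusted p = 0.01557) in the Retnlg and Mmp9 clusters and stood at 0.69 (adjusted p = 0.05126) in the Ccl3 cluster. H2-K1 was called in the Mmp9 cluster alone (1.27, adjusted p = 0.01736), with -0.09 and -0.23 in the others, and 32 of the 36 Nlrc5 UMIs of the Tumor 2 arrays came from the Retnlg cluster.

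T or NK-like cells went the other way. Their H2-K1 level was 3821, 3080 and 3324 in the arrays of Tumor 1 and 2095, 1257 and 1593 in those of Tumor 2, that of H2-D1 4404, 3403 and 3585 against 2031, 1685 and 1841, and that of B2m 5149, 3415 and 4295 against 2594, 1685 and 2648. No value of Tumor 2 reached those of Tumor 1. Of 4 members tested, 3 were lower in Tumor 2 (22.4% of 939 genes called in either direction): H2-K1 by 1.03 (SE 0.29, adjusted p = 0.01543), H2-D1 by 1.02 (SE 0.28, adjusted p = 0.0126) and B2m by 0.87 (SE 0.29, adjusted p = 0.03819). The class held different cells in the 2 tumors: at resolution 1.0 it split, and the cluster led by Il1rl1 held 30 of its 44 Whole Tumor cells in Tumor 1 and 9 of 128 in Tumor 2. In the remaining cells H2-K1 stood at 2965 in Tumor 1 and 1604 in Tumor 2, H2-D1 at 3079 and 1880 and B2m at 4191 and 2444, and in the Il1rl1 cluster at 3395 and 2439, 3846 and 1863, and 3884 and 2914. None was called without Tumor 2 array 2, the shallow library, or with no filter on low counts. Only 1 was called without array 3 or with at least 500 genes per cell. In C1q+ cells edgeR and DESeq2 called 0 of 5 members (10.3% of 2340 genes in either direction), and 1 had an unadjusted p under 0.05: B2m, at 1441, 1346 and 1548 in Tumor 1 and 2578, 2287 and 2110 in Tumor 2, changed by 0.75 (SE 0.24, adjusted p = 0.05834).

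The Healthy/Tumor Border was compared with the Whole Tumor in the classes with enough cells there, with 1 border library per tumor that is assumed to vary like the arrays. Photoactivation and sorting cannot be told apart from position in this comparison. B2m of myeloid-like cells stood at 904 at the border of Tumor 1, above its arrays (649, 722 and 812), and at 708 at the border of Tumor 2, below its arrays (1502, 1329 and 1236). H2-D1 was 795 at the border of Tumor 1 and 1124 at that of Tumor 2, below the arrays of each. Nlrc5 gave 12 UMIs at the border of Tumor 1 against 3 in its arrays together, or 6.28-fold more in CPM (95% counting interval 1.70 to 34.7), and 3 against 36 in Tumor 2, a ratio of 0.378 (0.0744 to 1.20). Other members were lower in CPM at the border of Tumor 1 than in its arrays: the ratio was 0.471 (0.321 to 0.678) for Tap2, 0.647 (0.545 to 0.767) for Tapbp, 0.370 (0.219 to 0.601) for Psmb8 and 0.256 (0.105 to 0.546) for Psmb9.

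All 9 members were tested among 6182 genes. Nlrc5 needed the sums of the Tumor 2 arrays, where it is higher, to pass the filter on low counts. With no filter its change was 3.05 at the Tumor 1 border and -4.97 for Tumor 2 minus Tumor 1. In Tumor 1 edgeR called B2m higher at the border by 0.83 (SE 0.26, adjusted p = 0.03357) and Nlrc5 by 2.97 (SE 0.96, adjusted p = 0.03869), where 8.17% of genes were called in either direction. Both calls were lost without any 1 of the 3 arrays, and with library sizes alone, which moved the median of all genes from -0.08 to -0.62, neither was called, B2m at 0.29 (adjusted p = 0.3123) and Nlrc5 at 2.48 (adjusted p = 0.06802). The direction of B2m turned inside the Mmp9 cluster, at 526.7 CPM at the border and 610.3 in the arrays. It stood at 1080.4 and 701.2 in the Retnlg cluster and at 981.0 and 897.5 in the Ccl3 cluster. With library sizes alone 3 other members were called lower at that border, Tap2 by 1.06 (adjusted p = 0.04501), Psmb8 by 1.46 (adjusted p = 0.02361) and Psmb9 by 1.95 (adjusted p = 0.03443), where the fit with TMM scaling gave -0.52, -0.92 and -1.42 and called none. In Tumor 2 B2m was lower at the border by 1.30 (SE 0.31, adjusted p = 0.003802) and H2-D1 by 1.06 (SE 0.31, adjusted p = 0.02312), where 7.81% were called. H2-D1 was not called without array 1 (-0.97, adjusted p = 0.0645) or array 3 (-0.93, adjusted p = 0.07427). With library sizes alone H2-D1 was not called either (-0.67, adjusted p = 0.07017), and B2m stayed called at -0.92 (adjusted p = 0.01322). Fitted inside the Retnlg, Ccl3 or Mmp9 cluster, no member was called at that border. Medians over the members were 0.10 and -1.06, and over all genes -0.08 and 0.04.

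The border change itself differed between the tumors for B2m by -2.14 (SE 0.41, adjusted p = 0.0001212), for H2-D1 by -1.44 (SE 0.41, adjusted p = 0.01513) and for Nlrc5 by -4.86 (SE 1.35, adjusted p = 0.01197), Tumor 2 minus Tumor 1, where 9.61% of genes were called. With at least 500 genes per cell none of the 3 was called (-1.84, -1.18 and -3.54, adjusted p = 0.09334, 0.3451 and 0.151), nor was any member at either border. With library sizes alone H2-D1 stood at -0.51 (adjusted p = 0.2679), B2m and Nlrc5 stayed called at -1.22 and -3.98, and Psmb8 was called at 2.39 (adjusted p = 0.04494). Cluster composition again differed: the border libraries held 104, 241 and 113 cells of the Retnlg, Ccl3 and Mmp9 clusters in Tumor 1 and 53, 28 and 23 in Tumor 2. Inside the Retnlg cluster the difference of B2m was -2.24 (adjusted p = 0.002213), and inside the Ccl3 and Mmp9 clusters it was -1.51 (adjusted p = 0.2795) and -0.46 (adjusted p = 0.8585). H2-D1 was called in none of the 3 clusters, at -0.55, -1.47 and -1.16, and 10 of the 12 Nlrc5 UMIs at the border of Tumor 1 came from the Ccl3 cluster. In C1q+ cells of Tumor 2 edgeR and DESeq2 called 0 of 8 members tested (1.03% of 3985 genes), with 0 at an unadjusted p under 0.05, and B2m stood at -0.63 with a 95% interval of -1.34 to 0.09.

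**Figure D5:**
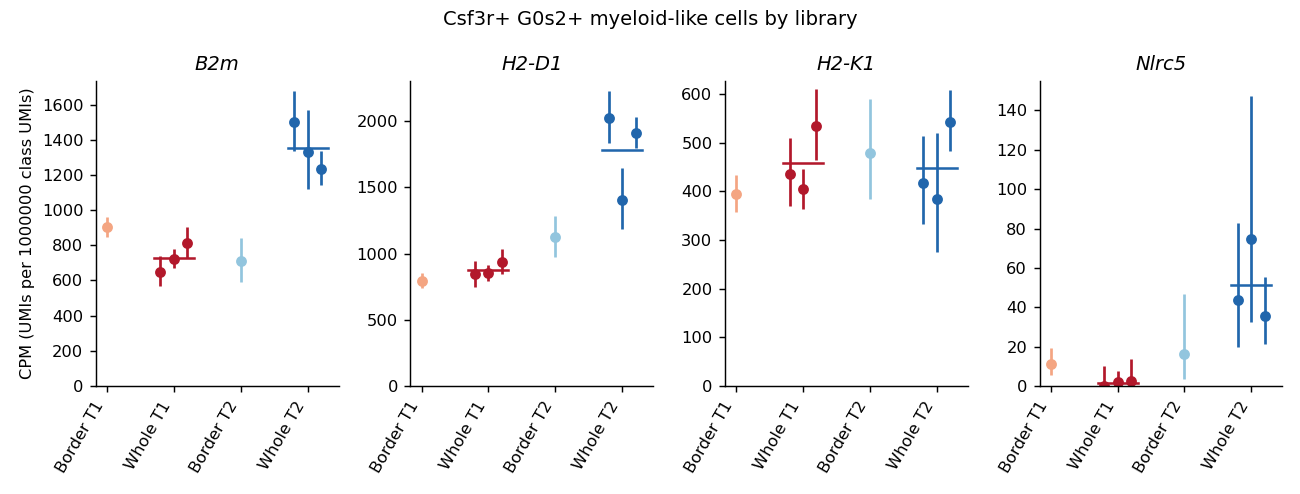
Level of B2m, H2-D1, H2-K1 and Nlrc5 in CPM in myeloid-like cells of each library, by tumor and region, with exact 95% Poisson intervals as bars and a line at the mean of the 3 Whole Tumor arrays. B2m and H2-D1 of the Tumor 2 arrays sit above all libraries of Tumor 1, and the border point of Tumor 2 sits below its arrays for both genes.

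Other genes of the pathway were read from a list of 35, of which 34 were in the tables. In Krt+ cells 19 were tested, and 9 were lower and 4 higher than in myeloid-like cells, 6 and 1 against C1q+ cells, 10 and 0 against T or NK-like cells, 3 and 1 against stromal-like cells and 4 and 0 against Sftp+ cells, by edgeR at an adjusted p of 0.05. Of all genes tested, 30.8% were lower and 24.9% higher than in myeloid-like cells, 17.0% and 16.2% against C1q+, 12.9% and 18.7% against T or NK-like, 15.4% and 13.8% against stromal-like and 6.61% and 6.41% against Sftp+ cells, so the 4 of 19 higher than in myeloid-like cells are near the share of all genes. The median was -1.11, -1.06, -1.94, -0.39 and -0.31, the last being -0.59 with 1 gene at its bound. Genes of the list passed the same filter on low counts, which can let in genes through classes where they are higher. Through which classes they passed is not given here, so counts, medians and changes of the list are descriptions only. Of the 6 tested heavy chains of the Qa and non-classical group, 3, 3, 5, 3 and 3 were lower. The change was -7.84 against T or NK-like cells and -4.77 against Sftp+ cells for H2-Q7, -7.23 and -5.24 for H2-Q6 and -4.27 and -3.21 for H2-Q4, though the counts of these near-identical genes may be split among them. H2-Q10 was lower by 4.87 and H2-Q6 by 2.86 against myeloid-like cells. Of 4 tested genes of interferon gamma signalling, 4 were lower than in myeloid-like, 1 than in C1q+, 3 than in T or NK-like and 0 than in stromal-like and Sftp+ cells. Higher than in myeloid-like cells were Irf8, a transcription factor of myeloid and B cells, by 2.83, and Psme1, an activator of the proteasome, which was also higher than in stromal-like cells, by 2.10.

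In Sftp+ cells of Tumor 2, 11 genes of the list were tested, and 3 were lower and 4 higher than in myeloid-like cells, 6 and 1 against C1q+, 7 and 0 against T or NK-like and 4 and 1 against stromal-like cells. These values are descriptions only too, for the same reason. Of all genes tested, 32.8% were lower and 23% higher than in myeloid-like cells, 26.1% and 11.5% against C1q+, 21.3% and 15.9% against T or NK-like and 17.8% and 6.32% against stromal-like cells, so the 3 lower than in myeloid-like cells are no more than the share of all genes gives. Jak2, a kinase of the interferon gamma receptor, was lower in all 4, at -3.65, -2.85, -4.05 and -3.24. Irf8 fell by 3.69 against C1q+ and by 6.28 against T or NK-like cells, and Irf1, a transcription factor induced by interferon, fell by 3.60 against stromal-like cells. Psme1 was higher than in myeloid-like cells by 3.24, as was the folding enzyme Pdia3 by 2.54.

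Between tumors, 7 of 16 tested genes of the list were higher and 4 lower in myeloid-like cells of Tumor 2, 1 and 1 of 16 in C1q+ cells, and 2 and 2 of 12 in T or NK-like cells, beside 54.6%, 10.3% and 22.4% of all genes called in either direction, which the counts in C1q+ cells lie close to. The lectin chaperones Canx and Calr were lower in myeloid-like cells by 2.38 and 1.85, and the receptor chain Ifngr1 was higher by 1.53. Irf1 was higher in C1q+ cells by 1.35 and in T or NK-like cells by 2.43. At the border, myeloid-like cells of Tumor 1 had 2 of 23 tested genes higher, H2-Q10 by 1.03 and Irf1 by 0.89, and those of Tumor 2 had 1 lower, Irf1, which fell by 1.53. These counts are near or below the 8.17% and 7.81% of all genes called there. The border change of both genes differed between the tumors, by -2.41 for Irf1 and -2.04 for H2-Q10, beside 9.61% of all genes called for that difference. In C1q+ cells of Tumor 2, 0 of 19 genes were called, beside 1.03% of all genes. Both counts are near or below those shares.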

How the data were processed

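Single-cell RNA of 2 KP lung tumors was profiled by Seq-Well in 8 libraries. The authors aligned reads to mm10 with STAR 2.5.2b in the Drop-seq pipeline, demultiplexed by bcl2fastq 2.17.1.14, and deposited UMI counts per gene and barcode, raw whole numbers. Labels gave the groups; the cell names inside the tables carry the other tumor's number, and the labels were used.

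Barcodes with at least 200 genes were clustered in Seurat 5.3.0 (R 4.3.3; 2000 variable genes less the members, the pathway list and genes listed for the border, 30 components, 10 neighbours, resolution 0.5), and clusters were named by marker lists. Doublets were called with scanpy 1.11.5 and kept. UMIs were summed per library and class with at least 5 cells and tested by edgeR 4.0.16 (TMM, filterByExpr, glmQLFTest, two-sided), with Benjamini-Hochberg adjustment over all genes. DESeq2 1.42.0, other scalings, filters, cell sets, and each library left out were alternatives, some chosen after seeing the data. Per-million levels carry exact 95% Poisson intervals, for counting error only. Counting is of 3' ends, so precision follows the UMIs of a class. The method was tested on simulated data. All 9 members are named, and of the pathway list the 3 largest called changes per comparison. Members, lists and tests were chosen with earlier results of these data known.

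One macrophage-like class and one allele of the genotype are not reported here.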

Additional observations from a re-analysis of the deposited data

Results flagged for a closer look

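The change from the Whole Tumor to the Healthy/Tumor Border in myeloid-like cells differed between Tumor 2 and Tumor 1 for 3 of the 9 members by edgeR's test of the difference itself. B2m differed by -2.14 (log2, adjusted p = 0.0001212), H2-D1 by -1.44 (adjusted p = 0.01513) and Nlrc5 by -4.86 (adjusted p = 0.01197). Nlrc5 needed the sums of the Tumor 2 arrays, where it is higher, to pass the filter on low counts, and stood at -4.97 with no filter. Each tumor has 1 border library, and the clusters that make up the class differ between the libraries. Their part in the difference was not tested beyond the fits inside single clusters, where B2m stayed called in the Retnlg cluster (-2.24, adjusted p = 0.002213) and H2-D1 in none. With library sizes alone the difference of H2-D1 was -0.51 (adjusted p = 0.2679). With at least 500 genes per cell none of the 3 was called (-1.84, -1.18 and -3.54, adjusted p = 0.09334, 0.3451 and 0.151).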

How the results depend on the processing

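The 57 member changes called gave 1169 values under the alternatives, of which 1043 kept direction and call, 117 kept direction but lost the call and 9 turned. The 9 were Tap1 in Krt+ over stromal-like cells at 4.02 (cells with at least 500 genes), 2.84 (all variable genes), 2.42 (without homopolymer barcodes) and 2.48 (without shared barcodes), Psmb9 there at 3.84 (at least 500 genes), H2-K1 in Tumor 2 over Tumor 1 myeloid-like cells at -0.042 (library sizes alone), -0.087 (Retnlg cluster alone) and -0.23 (Ccl3 cluster alone), and B2m at the Tumor 1 border at -0.029 (Mmp9 cluster alone). Without shared barcodes 3 of the 9 stromal-like Tap1 UMIs were left.

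Counts of members called moved as follows. With at least 500 genes per cell they were 4 (Krt+ over myeloid-like), 4 (over C1q+), 1 (over stromal-like), 1 (Tumor 2 over Tumor 1, T or NK-like) and 0 for border over whole in Tumor 1, Tumor 2 and their difference. Assignment by marker UMIs left 2 for Krt+ over Sftp+. Library sizes alone gave 2 for Sftp+ over stromal-like and 1 for the Tumor 2 border. Without a low-count filter the counts were 1 (C1q+ between tumors), 0 (T or NK-like between tumors), 1 (Tumor 1 border) and 1 (Tumor 2 border). All variable genes gave 1 for C1q+ between tumors, and DESeq2 1 for the Tumor 1 border. Myeloid-like comparisons moved with the clusters, settings chosen after seeing the data. Between tumors they gave 2 without the joined cluster, 2 in the Retnlg and 1 in the Ccl3 cluster. The Tumor 1 border gave 0, 1, 0 and 0 without the joined cluster and in the Retnlg, Ccl3 and Mmp9 clusters, the Tumor 2 border 1, 0, 0 and 0 and their difference 1, 1, 0 and 0, while Sftp+ over myeloid-like gave 1 in the Ccl3 and 1 in the Mmp9 cluster. Except where the construction leaves fewer cells or genes, the cause was not tested.

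With 1 library left out, counts ranged from 6 to 8 (Krt+ over myeloid-like), 6 to 8 (over C1q+), 7 to 8 (over T or NK-like), 2 to 6 (over stromal-like), 2 to 6 (over Sftp+), 2 to 3 (Sftp+ over myeloid-like), 2 to 3 (over C1q+), 3 to 3 (over T or NK-like), 1 to 2 (over stromal-like), 3 to 4, 0 to 0 and 0 to 3 (between tumors in myeloid-like, C1q+ and T or NK-like), and 0 to 0, 1 to 2, 2 to 3 and 0 to 0 (border in Tumor 1, Tumor 2, their difference and C1q+).

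A replicate block over same-numbered arrays gave 4, 0 and 2 members between tumors in myeloid-like, C1q+ and T or NK-like cells (B2m of the last -0.89, adjusted p = 0.05728). Correlations of same-numbered arrays ran from -0.041 to -0.027, -0.063 to 0.037 and -0.036 to 0.027, so the numbers did not pair the samples.

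Over all genes, library sizes alone moved the split of higher to lower calls between tumors in myeloid-like cells from 1245 to 1310 to 603 to 2792, at the Tumor 1 border from 405 to 100 to 189 to 1036, at the Tumor 2 border from 198 to 285 to 527 to 153 and for their difference from 184 to 410 to 1078 to 169. For Krt+ cells the split went from 1002 to 1239 to 1390 to 827 (RLE) or 1456 to 843 (DESeq2) over myeloid-like, from 653 to 684 to 860 to 593 (RLE), 887 to 600 (DESeq2) or 504 to 871 (library sizes) over C1q+, and under library sizes from 258 to 266 to 200 to 356 over Sftp+, from 557 to 620 to 330 to 1302 over stromal-like and from 753 to 520 to 518 to 809 over T or NK-like. For Sftp+ cells DESeq2 moved it from 133 to 374 to 139 to 238 over stromal-like and from 335 to 449 to 385 to 335 over T or NK-like.

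Tap1, Tap2, Psmb8, Psmb9 and Nlrc5 gave 0 to 2 UMIs each in Krt+ cells of Tumor 1, so their ratios have wide intervals.

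Over all genes, the number called had these values, with the lowest and highest over the alternatives: Krt+ over myeloid-like 2241 (1872 to 4092), C1q+ 1337 (873 to 1784), T or NK-like 1273 (820 to 1515), stromal-like 1177 (782 to 1632) and Sftp+ 524 (120 to 775), Sftp+ over myeloid-like 1174 (699 to 2522), C1q+ 791 (613 to 1775), T or NK-like 784 (618 to 1564) and stromal-like 507 (294 to 1061), between tumors in myeloid-like 2555 (380 to 3395), C1q+ 240 (115 to 412) and T or NK-like cells 210 (113 to 372), and at the border in Tumor 1 505 (23 to 1225), Tumor 2 483 (19 to 680), their difference 594 (21 to 1247) and C1q+ 41 (3 to 82).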
